A study of Homo sapiens with 4 samples.

Results

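The interleukin receptor subunits described here are the 10 genes IL18R1, IL21R, IL4R, IL6ST, IL6R, IL10RB, IL13RA1, IL15RA, IL22RA1 and IL17RA, picked by gene symbol from the 46427 genes of a count table. Poly(A) RNA was sequenced in SNU638 cells, a line established from human gastric cancer, with 2 biological replicates of cells carrying a control vector and 2 of YTHDF1-overexpressed cells. YTHDF1 is a protein that binds RNAs methylated at N6 of adenosine, and the study asked how its overexpression alters the response to IFN-γ. The cells of all 4 libraries went without serum for 24 h and then received IFN-γ at 10 ng/ml, for 8 h by the sample labels, whereas the study's own text gives a longer exposure. Since no untreated library was analysed here, the values describe IFN-γ-treated cells only, and since 1 cell line was used they describe that line. The labels call the libraries of a vector biological replicates and do not say what distinguishes replicate 1 from replicate 2, so p-values measure only the spread between these samples.

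Interleukin receptors are assembled from 2 or more chains at the cell surface, and in most cases a cell answers a ligand only when every chain of that receptor is present. Most of the chains here belong to the class I or class II cytokine receptor families, which have no kinase of their own and signal through JAK kinases and STAT transcription factors, whereas IL18R1 signals through MYD88 and IRAK kinases and IL17RA through the adaptor TRAF3IP2. Several chains serve more than 1 ligand: IL6ST is the shared signal transducer of the IL-6 family, IL10RB is shared by IL-10, IL-22, IL-26 and the type III interferons, and IL4R serves both IL-4 and IL-13.

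The libraries held 57398137 to 60864942 counts each, and 20072 genes were without a count in any of them. The overexpressed gene stood at 82.2 and 80.3 CPM, counts scaled to the size of the library, in control replicates 1 and 2 and at 16494.5 and 2628 CPM in YTHDF1 replicates 1 and 2, so the libraries follow their labels while the level reached differed between the YTHDF1 libraries. The libraries grouped by replicate number. Across genes, which are not independent replicates, Pearson's r of log2 CPM was 0.985 and 0.983 between vectors of the same number, and 0.885 and 0.888 between replicates of the same vector. Of 6 epithelial markers all were tested, with summed levels of 4114, 6406, 3917 and 6720 CPM in control 1, control 2, YTHDF1 1 and YTHDF1 2. The sums were mostly KRT8, and the markers went both ways between the numbers. KRT8, KRT18 and KRT19 were higher in replicates 2, and EPCAM, CDH1 and CLDN4 were lower. CDH1 was at 52.8, 34.7, 51.4 and 35.1 CPM in the same order. CLDN4, a tight junction gene among them, stood at 55.0 and 56.6 CPM in replicates 1 and at 0.934 and 0.994 CPM in replicates 2. Of 12 leukocyte markers the T, B and NK cell genes CD3D, CD2, MS4A1 and NKG7 were at 0 in all 4 libraries, PTPRC reached at most 0.182 CPM, and the summed level of 7.16 to 8.41 CPM was mostly CD68. The myeloid marker ITGAM was at 1.98, 1.30, 1.31 and 0.762 CPM in the same order, and CD14 at 0.248 to 0.690 CPM. ITGAM and LYZ were lower in replicates 2 (edgeR adjusted p = 0.043 and 0.0083), with LYZ at 22 counts or fewer. CD68 differed the other way by 0.20 on the log2 scale (edgeR adjusted p = 0.24). Of 8 stromal markers COL1A2 was at 0 throughout, and the sum was 11.8 and 12.4 CPM in replicates 1 and 7.55 and 6.76 CPM in replicates 2, mostly COL1A1. The part of these differences in the results below was not tested.

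All 10 genes matched the NCBI RefSeq table of GRCh38.p14. IL6R lies on chromosome 1 at 154405343 to 154469450 on the plus strand and IL22RA1 on the same chromosome at 24119771 to 24143140 on the minus strand. IL4R, at 27313756 to 27364778, and IL21R, at 27402174 to 27452042, are next to each other on the plus strand of chromosome 16 with 37396 bases between them. IL18R1 is on chromosome 2 at 102355796 to 102398776, IL6ST on chromosome 5 at 55935095 to 55994963, IL15RA on chromosome 10 at 5948900 to 5978741, IL10RB on chromosome 21 at 33266367 to 33310182, IL17RA on chromosome 22 at 17085000 to 17115693 and IL13RA1 on chromosome X at 118727606 to 118805228. The submitters' processing notes name GRCh38 as the build of the counts.

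The stretches before the RefSeq starts of IL6R, IL21R and IL22RA1 are given because these are the 3 subunits whose libraries differed past the threshold. Each is the longest unbroken run of the 250 bases before the start that lies outside every GENCODE v29 exon. It is read 5′ to 3′ on the strand of the gene, and capitals would mark a match to a searched motif. None of the 3 holds one. The start listed for IL21R lies inside the gene's span given above, so its stretch precedes an internal transcript start and not the first base of the gene.
IL6R, chr1:154405093-154405192, plus strand: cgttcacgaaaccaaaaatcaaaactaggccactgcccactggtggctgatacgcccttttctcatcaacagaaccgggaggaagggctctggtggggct
IL21R, chr16:27427021-27427243, plus strand: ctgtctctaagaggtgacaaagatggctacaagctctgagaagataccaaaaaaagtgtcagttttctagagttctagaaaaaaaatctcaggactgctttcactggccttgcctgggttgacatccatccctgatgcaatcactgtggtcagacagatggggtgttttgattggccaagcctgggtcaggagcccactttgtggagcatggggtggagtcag
IL22RA1, chr1:24143141-24143390, minus strand: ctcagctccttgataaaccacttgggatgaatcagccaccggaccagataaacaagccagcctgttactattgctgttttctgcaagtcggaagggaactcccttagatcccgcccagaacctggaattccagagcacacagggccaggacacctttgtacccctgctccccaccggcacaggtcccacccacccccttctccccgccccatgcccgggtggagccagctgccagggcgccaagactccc

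The searched motifs were TTCNNNGAA, the palindrome that STAT dimers bind, and GAAANNGAA, a core of the interferon response element, each on both strands. They do not overlap each other in any window of the subunits. Over the whole 250 bases, 9 of the 10 genes had an entry, with 13 start sites, and IL17RA is named only. A STAT match was present before 1 of 4 IL15RA starts, TTCGGCGAA on chromosome 10 at 5978165 to 5978173, 127 bases before the start. An IRF match was present before another IL15RA start, GAAAGCGAA at 5977597 to 5977605, and before 1 of the IL18R1 starts, TTCACTTTC on chromosome 2 at 102356266 to 102356274. All 3 matches lie in an exon of some GENCODE transcript. Among 35116 promoters of the same length 6.57% held the STAT letters and 6.88% the IRF letters. The GC content of the 250 bases was 49.2% for IL21R and 65.2% for IL6R, against a median of 58.0% over all promoters. A match is a run of letters and not a shown binding site.

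All 10 subunits passed the filter on low counts that left 17781 genes, and none was called between YTHDF1-overexpressed and control cells in a fit without the replicate number, where the spread between the numbers counts as error. The study asked for a log2 difference of at least 0.5 in size with a p under 0.05. It does not say whether that p is adjusted, and it reported more genes at that threshold than the fit here. Taken with an unadjusted p, that threshold called 0 of 10 subunits against 18 of all genes (0.101%). With Benjamini-Hochberg adjustment of the quasi-likelihood p of edgeR, 0 of 10 were called against 0 of all genes (0%), and every adjusted p of the subunits was 1.00. The median log2 difference of the subunits, YTHDF1 minus control, was 0.031, and that of all tested genes was 0.0046. The 95% interval included 0 for each of the 10, and its width differed greatly, from -0.33 to 0.22 for IL17RA to -5.30 to 5.56 for IL6R. The CPM of the vectors did not overlap for 1 subunit, IL18R1, against 11.5% of all genes.

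All but IL18R1 of the subunits, 9 of 10, differed more between the replicate numbers than between the vectors, as did 14841 of the 17781 tested genes. Replicates 2 were compared with replicates 1 in a model that also holds the vector, with the same test and thresholds. IL21R was higher in replicates 2, whereas IL6R and IL22RA1 were lower, so 3 of 10 subunits were called against 25.7% of all genes. In the higher direction it was 1 of 10 against 9.71%, and in the lower direction 2 of 10 against 16.0%. At any size of difference 7 of 10 had an adjusted p under 0.05, with 2 higher and 5 lower, against 51.8% of all genes. The CPM of the numbers did not overlap for 9 of 10 subunits, all but IL18R1, against 77.1% of all genes. These shares are near the background, so they do not set the subunits apart, and the median size of the difference was 0.26 on the log2 scale for the subunits and 0.31 for all tested genes. The summed level of the 10 was 297, 299, 298 and 290 CPM in control 1, control 2, YTHDF1 1 and YTHDF1 2.

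**Figure D1:**
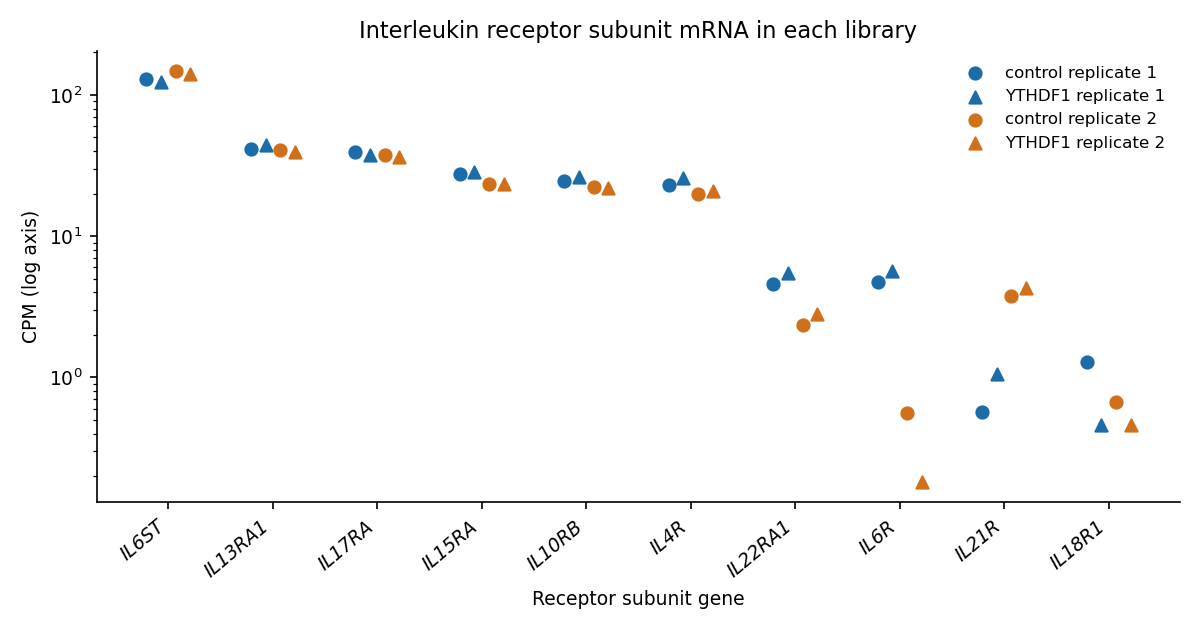
CPM of each receptor subunit on a log axis in the 4 libraries, with circles for control, triangles for YTHDF1, blue for replicate 1 and orange for replicate 2, ordered from highest to lowest mean. The 6 genes on the left lie above 19 CPM in every library with the points close together, and the 4 on the right lie under 6 CPM, with IL6R and IL21R split by colour and in opposite directions.

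**Figure D2:**
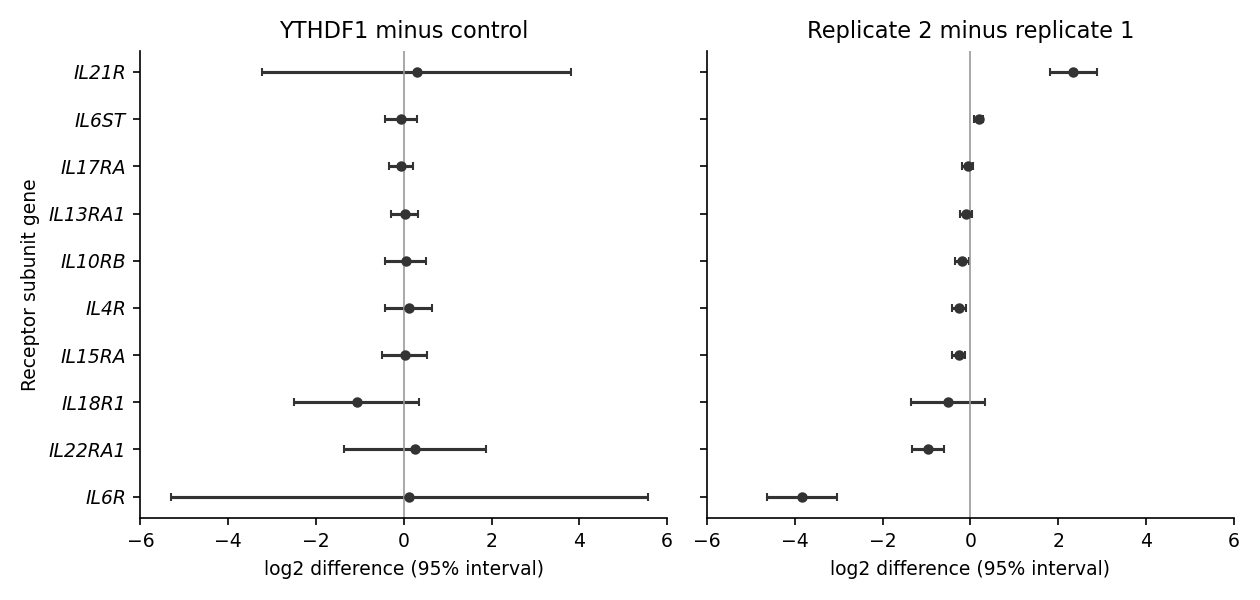
Log2 difference of each receptor subunit with its 95% interval from edgeR's quasi-likelihood fit, YTHDF1 minus control on the left and replicate 2 minus replicate 1 on the right. All 10 intervals on the left cross 0, and on the right those of IL21R, IL22RA1 and IL6R lie farthest from 0.

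IL6R, the chain that binds IL-6 itself, had the largest range of the subunits. Its counts were 283 in control 1, 32 in control 2, 332 in YTHDF1 1 and 11 in YTHDF1 2, which is 4.76, 0.564, 5.64 and 0.182 CPM. Both replicates 1 were high and both replicates 2 low, with no overlap between the numbers, while the vectors overlapped. The mean was 5.20 ± 0.62 CPM in replicates 1 (SD, n = 2) and 0.373 ± 0.270 CPM in replicates 2 (SD, n = 2). IL6R was 14.3-fold lower in replicates 2, a log2 difference of -3.84 with an SE of 0.36 (edgeR adjusted p = 1.5e-05). The size depended on the libraries used, since the same difference was -3.06 within control and -4.89 within YTHDF1. It was -3.07 without either YTHDF1 library and -4.94 and -4.93 without control 1 and control 2. These values restate the within-vector ones, since only the vector that kept both libraries then sets the difference. In bulk RNA, fewer cells with a transcript and less transcript per cell cannot be told apart.

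The vector comparison of IL6R went in opposite directions at the 2 numbers. The CPM ratio of YTHDF1 over control was 1.18 in replicates 1, with an exact 95% counting interval from 1.01 to 1.39, and 0.323 in replicates 2, with an interval from 0.147 to 0.657, which rests on 11 and 32 counts. Such intervals compare 2 libraries and cover counting error alone, as the reads carry no molecular identifiers. Over all 4 libraries the log2 difference was 0.13, with a 95% interval from -5.30 to 5.56 (edgeR adjusted p = 1.00). In that fit the difference between the numbers counts as spread.

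IL6ST, also called gp130, which passes on the signal of IL-6 and its relatives, stood at 130 CPM in control 1, 147 in control 2, 123 in YTHDF1 1 and 141 in YTHDF1 2. The replicates 2 lay above the replicates 1 without overlap, by 0.19 on the log2 scale with an SE of 0.044 (edgeR adjusted p = 0.0052), which is under the size asked for a call. Between vectors the difference was -0.070 with an interval from -0.43 to 0.29. The co-receptors that pair with IL6ST were named after their values were seen. OSMR, the oncostatin M chain, was at 104, 155, 110 and 153 CPM in control 1, control 2, YTHDF1 1 and YTHDF1 2 and was higher in replicates 2 by 0.52. LIFR, the LIF chain, was at 15.7, 15.5, 18.1 and 15.2 CPM in the same order.

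IL21R, which pairs with the common gamma chain to bind IL-21, differed between the numbers in the direction opposite to IL6R. Its counts were 34 in control 1, 215 in control 2, 62 in YTHDF1 1 and 259 in YTHDF1 2, or 0.572, 3.79, 1.05 and 4.29 CPM. The lower of the replicates 2 was above the higher of the replicates 1, and within each number the YTHDF1 library was above the control library. The mean was 0.812 ± 0.340 CPM in replicates 1 and 4.04 ± 0.35 CPM in replicates 2 (SD, n = 2 each). IL21R was 5.08-fold higher in replicates 2, a log2 difference of 2.35 with an SE of 0.24 (edgeR adjusted p = 2.8e-05), and it was 2.71 within control and 2.02 within YTHDF1.

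Between vectors, IL21R had a CPM ratio of YTHDF1 over control of 1.84 in replicates 1 (exact 95% counting interval 1.19 to 2.89) and 1.13 in replicates 2 (0.941 to 1.36). The fit over the 4 libraries, in which the large difference between the numbers counts as spread, gave a log2 difference of 0.29. Its 95% interval from -3.24 to 3.82 allows a difference in either direction (edgeR adjusted p = 1.00). IL18R1 and IL21R are among the genes that the study displayed for their difference between the vectors in these same libraries, so the direction of that difference is not independent evidence for either gene. The antisense gene IL21R-AS1 overlaps IL21R and had 5 to 13 counts per library. The libraries were made with a stranded kit, but whether strand was used in counting is not given in the sources used here.

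IL15RA, the high-affinity IL-15 binding chain, was level by comparison. It stood at 27.7, 23.6, 28.7 and 23.2 CPM in control 1, control 2, YTHDF1 1 and YTHDF1 2, with the replicates 2 below the replicates 1. That difference was -0.27 with an SE of 0.066 (edgeR adjusted p = 0.0073), and the difference between vectors was 0.017 with an interval from -0.51 to 0.54. The partner chains of IL21R and IL15RA were near the floor. IL2RG, the common gamma chain that both receptors use for signalling, had a count of 0 in all 4 libraries, which allows up to 3 counts or about 0.0529 CPM per library at most. IL2RB, the beta chain shared by the IL-2 and IL-15 receptors, was at 0.235 CPM in control 1, 0.204 CPM in YTHDF1 1 and 0 in both replicates 2. The alpha chain of the IL-2 receptor, IL2RA, the nearest gene of the table on the higher side of IL15RA, was also at 0 throughout.

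IL4R and IL13RA1 together form the type II receptor, which binds IL-4 and IL-13. IL4R stood at 23.1, 19.9, 25.6 and 20.8 CPM in control 1, control 2, YTHDF1 1 and YTHDF1 2, with the replicates 2 below the replicates 1. Its log2 difference between numbers was -0.26 with an SE of 0.069 (edgeR adjusted p = 0.012). IL13RA1 was at 41.4, 41.0, 44.3 and 39.3 CPM in the same order, and its difference of -0.094 had a 95% interval from -0.23 to 0.045. Between vectors IL4R differed by 0.11, from -0.42 to 0.64, and IL13RA1 by 0.019, from -0.29 to 0.32. Both chains were thus detected in each library at 19.9 CPM or more. Although IL4R and IL21R are neighbours on chromosome 16, the log2 difference between numbers was -0.26 for the first and 2.35 for the second, and it was 0.21 for GTF3C1, the gene on the other side of IL21R.

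IL22RA1, the specific chain of the IL-22 receptor and typical of epithelial cells, was lower in replicates 2. Its counts were 274 in control 1, 133 in control 2, 323 in YTHDF1 1 and 171 in YTHDF1 2, or 4.61, 2.34, 5.49 and 2.83 CPM. The numbers did not overlap, and within each number the YTHDF1 library was above the control library. IL22RA1 was 1.95-fold lower in replicates 2, with a log2 difference of -0.96 and an SE of 0.16 (edgeR adjusted p = 7.8e-04), and the same difference was -0.97 within control and -0.95 within YTHDF1. The mean was 5.05 ± 0.62 CPM in replicates 1 and 2.59 ± 0.34 CPM in replicates 2 (SD, n = 2 each).

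Between vectors, the CPM ratio of IL22RA1 was 1.19 in replicates 1 (exact 95% counting interval 1.01 to 1.40) and 1.21 in replicates 2 (0.957 to 1.53), so both ratios were above 1. The fit over the 4 libraries, in which the difference between the numbers counts as spread, gave 0.26 with an interval from -1.35 to 1.87 (edgeR adjusted p = 1.00). IL10RB, the shared second chain of the IL-22 receptor, stood at 24.7, 22.4, 26.4 and 22.1 CPM in control 1, control 2, YTHDF1 1 and YTHDF1 2. Its log2 difference between numbers was -0.20 with an SE of 0.069 (edgeR adjusted p = 0.037), and its vector difference was 0.042, from -0.42 to 0.50. IFNLR1, which pairs with IL10RB for type III interferons and lies next to IL22RA1, was at 17.0 to 19.2 CPM and differed between numbers by -0.083 (edgeR adjusted p = 0.372). MYOM3, a muscle M-band gene on the other side of IL22RA1, had 736 counts over the replicates 1 and 0 over the replicates 2, at least 121-fold lower against 3 counts in each library.

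IL17RA, the common chain of the IL-17 receptors, was the steadiest of the 10. It stood at 39.3, 37.4, 37.7 and 36.1 CPM in control 1, control 2, YTHDF1 1 and YTHDF1 2, a range of 0.12 on the log2 scale. Its difference between numbers was -0.065 with a 95% interval from -0.19 to 0.066, and between vectors -0.056 from -0.33 to 0.22. Its partners were not alike. IL17RC, which completes the receptor for IL-17A and IL-17F, was at 21.3, 24.5, 19.4 and 26.004 CPM in control 1, control 2, YTHDF1 1 and YTHDF1 2. IL17RE, which completes the receptor for the epithelial cytokine IL-17C, was at 4.68, 0.705, 4.26 and 0.514 CPM in the same order and was lower in replicates 2, with a log2 difference of -2.88 (edgeR adjusted p = 3.8e-06).

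IL18R1, the IL-18 binding chain, had the largest log2 difference of the 10 between vectors. Its counts were 76 in control 1, 38 in control 2, 27 in YTHDF1 1 and 28 in YTHDF1 2, or 1.28, 0.670, 0.459 and 0.464 CPM. Both YTHDF1 libraries were below both control libraries, and control 1 stood above the other libraries. The log2 difference, YTHDF1 minus control, was -1.08 with an SE of 0.49 and a 95% interval from -2.50 to 0.35, which did not pass in the fit without the replicate number at an unadjusted or adjusted p (edgeR adjusted p = 1.00). The CPM ratio of YTHDF1 over control was 0.359 in replicates 1 (exact 95% counting interval 0.222 to 0.563) and 0.692 in replicates 2 (0.409 to 1.16). Without control 1 the log2 difference was -0.54, about the same as the -0.52 within replicates 2, and without control 2 it was -1.47.

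IL18RAP, the accessory chain that IL18R1 needs for signalling, was at 0 in 3 libraries and at 0.033 CPM in YTHDF1 2. IL18 itself was at 29.8, 2.13, 26.8 and 1.62 CPM in control 1, control 2, YTHDF1 1 and YTHDF1 2 and was lower in replicates 2, with a log2 difference of -3.92 (edgeR adjusted p = 2.3e-09). IL18BP, the secreted protein that binds and blocks IL-18, was at 105, 197, 101 and 203 CPM and was higher in replicates 2 by 0.96 (edgeR adjusted p = 1.7e-07). Ligand and inhibitor of the IL-18 system thus differed between the numbers in opposite directions, while IL18R1 differed by -0.51 with a 95% interval from -1.35 to 0.33.

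**Figure D3:**
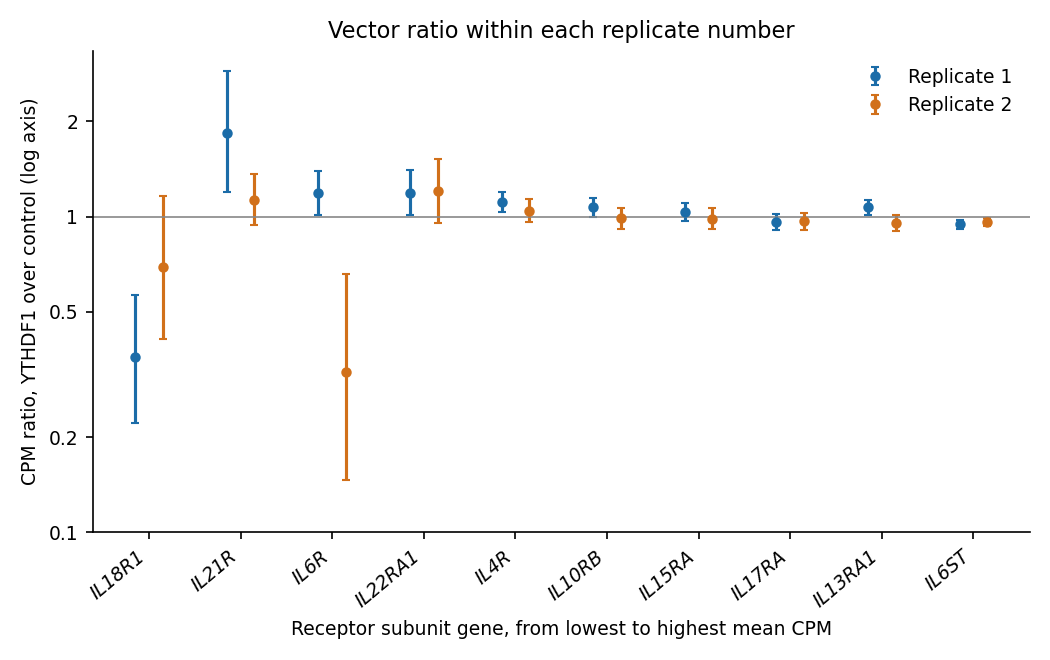
CPM ratio of YTHDF1 over control for each receptor subunit on a log axis, within replicate 1 in blue and within replicate 2 in orange, with exact 95% counting intervals as bars, ordered from lowest to highest mean CPM. IL18R1 lies below 1 at both numbers, IL6R lies at 1.18 and 0.323, and the 6 genes at the right lie close to 1.

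To set the levels of different genes in order, they were taken per length, as CPM per kilobase of the longest GENCODE transcript matched to the gene's RefSeq entries. On this scale IL6ST was at 14.9 on average, with libraries from 13.5 to 16.2, IL15RA at 13.9, from 12.6 to 15.5, IL10RB at 12.2, from 11.3 to 13.4, and IL13RA1 at 10.3, from 9.73 to 11.0. IL6ST overlapped IL15RA in range, and it lay below IL15RA in both replicates 1 and above it in both replicates 2. IL15RA overlapped IL10RB in range, yet within every library IL15RA was the higher of these 2. IL6ST and IL10RB did not overlap. IL4R followed at 6.07, from 5.41 to 6.96, IL17RA at 4.37, from 4.199 to 4.56, and IL22RA1 at 1.37, from 0.838 to 1.96. IL21R at 0.5004, IL6R at 0.471 and IL18R1 at 0.196 were the lowest and overlapped, with libraries from 0.0308 to 0.953 among them. The order depends on the transcript, since with the shortest matched transcript IL6ST was at 52.5 and IL4R at 38.6 CPM per kilobase, ahead of IL15RA at 24.9. The mean over the 4 libraries hides that IL6R exceeded IL21R in both replicates 1 and lay below it in both replicates 2.

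**Figure D4:**
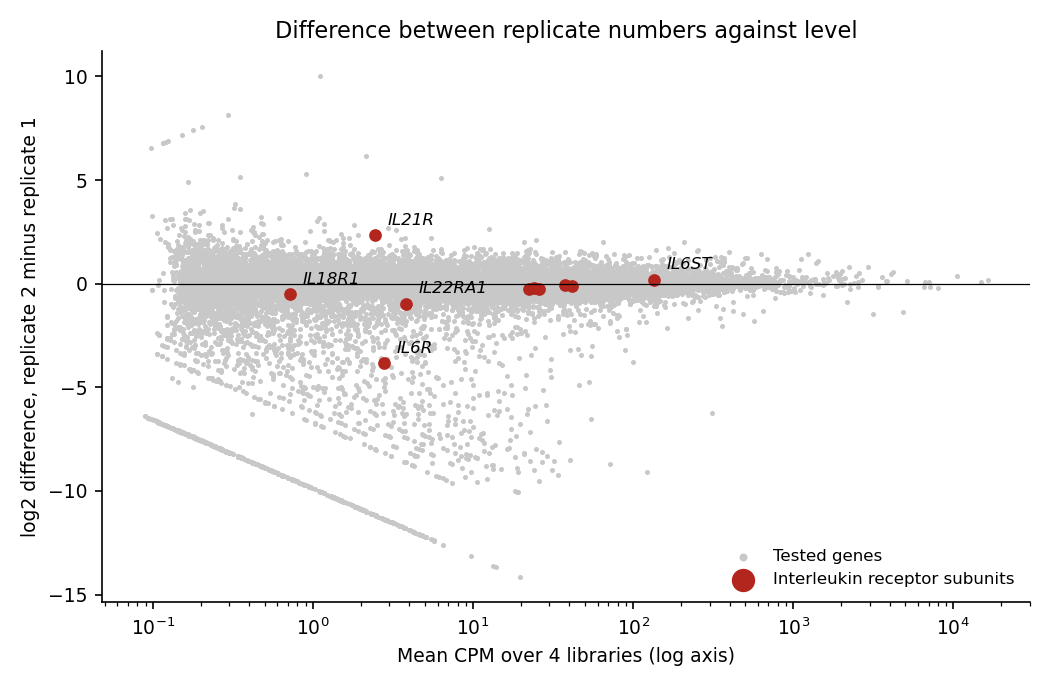
Log2 difference of replicate 2 minus replicate 1 against the mean CPM over 4 libraries on a log axis, for all tested genes in grey and the receptor subunits in red. The subunits at the right lie near 0 like most genes of their level, IL21R lies above the main band and IL6R lies among the scattered genes below it.

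The genes whose pattern was most like that of IL6R over the 4 libraries, by the largest gap in centred log2 CPM, were FAM184B with a gap of 0.32, LINC01405 with 0.34 and FGF7, a fibroblast growth factor, with 0.39. For IL21R they were the non-coding LINC01940 with 0.19, PGM5P4-AS1 with 0.21 and LINC02798 with 0.24. LINC01940 was at 0.387, 2.49, 0.560 and 2.52 CPM in control 1, control 2, YTHDF1 1 and YTHDF1 2, high in replicates 2 like IL21R. For IL18R1 they were RPL3L and LOC107985355 with 0.11 each and the pseudogene STAG3L3 with 0.12. The search ran over 17780 genes, and all but LINC01405, LINC01940 and STAG3L3 of these 9 lay under 1 CPM in every library, where single counts shape the pattern.

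The genes next to a subunit on the chromosome are given beside the 25.7% of all tested genes called between the numbers. CECR7, a non-coding RNA next to IL17RA, was at 3.16, 0.194, 2.50 and 0.215 CPM in control 1, control 2, YTHDF1 1 and YTHDF1 2, a log2 difference between numbers of -3.76 (edgeR adjusted p = 4.5e-06) beside -0.065 for IL17RA, while TMEM121B on the other side of IL17RA differed by -0.13 (edgeR adjusted p = 0.820). DOCK11, a guanine exchange factor next to IL13RA1, was higher in replicates 2 by 0.76, and ZCCHC12 on its other side by 0.64, beside -0.094 for IL13RA1. IFNAR1, the type I interferon receptor chain next to IL10RB, differed by 0.088. On either side of IL6R the table gave little, with SHE at 0 in every library, RPSAP17 at 3 to 6 counts, and the overlapping IL6R-AS1 at 2 counts in YTHDF1 1 and 0 elsewhere.

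Of 31 other interleukin receptor chains 21 were tested, none was called between vectors under either rule, and between numbers 2 were higher and 5 lower in replicates 2. Beside these, 9.71% of all tested genes were higher and 16.0% lower between numbers, and 0.101% were called between vectors at an unadjusted p and 0% at an adjusted one. The higher ones were IL12RB1, the shared chain of the IL-12 and IL-23 receptors, by 1.98 and OSMR by 0.52. The lower ones were IL17RE, IL31RA, IL10RA, IL2RB and CSF2RA. IL31RA, which pairs with OSMR and lies next to IL6ST, was at 1.06, 0, 1.22 and 0.182 CPM in control 1, control 2, YTHDF1 1 and YTHDF1 2. IL10RA, the IL-10 binding chain that pairs with IL10RB, was at 0.521, 0.106, 0.272 and 0.0994 CPM in the same order and differed by -1.88. CSF2RA, the GM-CSF binding chain, had 53 counts over the replicates 1 and 2 over the replicates 2, a ratio of 26.2 with an exact counting interval from 6.91 to 222, and IL2RB was at least 4.28-fold lower. IL7R passed between numbers at an unadjusted p, with a log2 difference of 1.13, and not at an adjusted one (edgeR adjusted p = 0.069).

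Of 23 ligands of the 10 subunits 8 were tested, 10 were at 0 in all 4 libraries and none was called between vectors. IL21, IL4, IL6, IL27, IL10, IL22, IL26, IL24, IL17A and IL25 were those at 0. Between numbers LIF and IFNL1 were higher in replicates 2, and IL18, IL11, CLCF1 and CNTF lower, which is 2 and 4 of the 8 tested beside 9.71% and 16.0% of all tested genes. LIF, which binds LIFR with IL6ST, was at 154, 254, 152 and 250 CPM in control 1, control 2, YTHDF1 1 and YTHDF1 2 and was higher in replicates 2 by 0.72. IL11, CLCF1 and CNTF, which also signal through IL6ST, went the other way: IL11 differed by -2.19, CLCF1 by -1.41, and CNTF had 223 counts over the replicates 1 and 0 over the replicates 2, at least 36.7-fold lower. IFNL1, a type III interferon, was higher by 1.48 at 0.235 to 0.882 CPM. IL15, the ligand of IL15RA, was at 16.1, 18.2, 18.99 and 21.1 CPM in control 1, control 2, YTHDF1 1 and YTHDF1 2 and did not pass between vectors or numbers (edgeR adjusted p = 1.00 and 0.081).

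**Figure D5:**
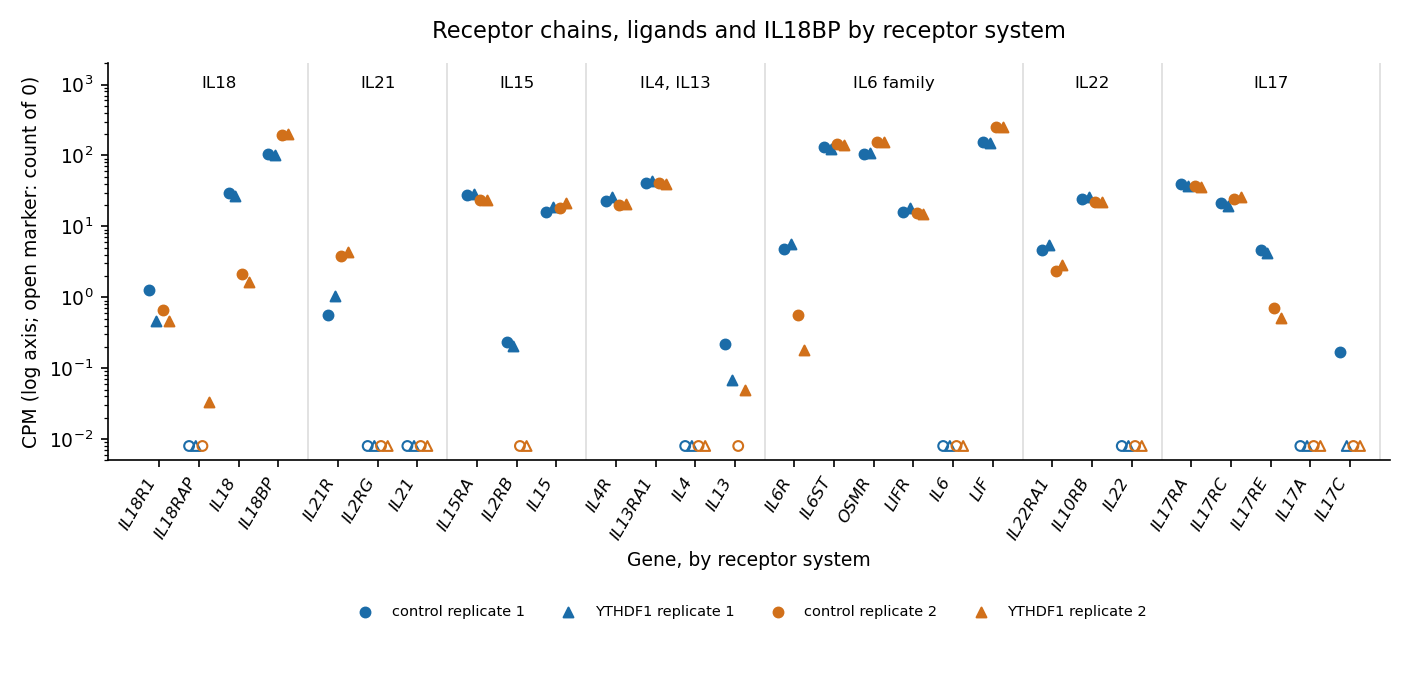
CPM on a log axis of receptor chains, ligands and IL18BP, grouped by receptor system, in the 4 libraries with the same marks as above and open markers, set at an arbitrary height, for a count of 0. The chains IL18RAP and IL2RG and the ligands IL21, IL4, IL6, IL22 and IL17A lie at or near 0, while IL18, IL18BP, IL6R, IL21R and IL17RE are split by replicate number.

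Of 10 inhibitors 7 were tested, 0 were called between vectors, and IL18BP and CISH, a STAT5-induced suppressor, were higher in replicates 2, CISH by 0.67, beside 9.71% of all tested genes. SOCS3, which blocks signalling at IL6ST, was at 70.9, 93.9, 77.4 and 95.04 CPM in control 1, control 2, YTHDF1 1 and YTHDF1 2 and differed between numbers by 0.35, under the size asked for. The 19 signalling genes were all tested and none was called between vectors. Between numbers 4 were higher and 4 lower in replicates 2, again beside 9.71% higher and 16.0% lower over all tested genes. Of the higher ones JAK2 differed by 0.63, STAT5A by 1.26 and STAT5B by 0.68, and the lower ones were STAT6, JAK3, STAT4 and IRS2. STAT6, which IL-4 and IL-13 activate through IL4R, was at 47.8, 28.5, 47.9 and 28.9 CPM and was lower, with a log2 difference of -0.74. JAK3, the kinase that sits on the common gamma chain, was lower with -0.66, and STAT4, used by IL-12, with -1.31. IRS2, an adaptor of IL4R, had 1048 counts over the replicates 1 and 3 over the replicates 2, a ratio of 346 with an exact counting interval from 118 to 1679. STAT3 was at 416 to 517 CPM, STAT2 at 216 to 256, IRS1 at 145 to 190 and IRAK1 at 132 to 168 CPM.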

How the data were processed

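The authors deposited raw counts, whole numbers of reads per gene for 46427 genes in 4 libraries, without normalization. The submitters' processing notes name Trimmomatic, HISAT2 and GRCh38, while the counting tool, its strand setting and the annotation are not given in the sources used here. Total counts ran from 57398137 to 60864942 per library.

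Low counts were removed with filterByExpr, TMM gave the library sizes, and groups were compared over 17781 genes with the quasi-likelihood test of edgeR 4.0.16 in R 4.3.3 with Benjamini-Hochberg adjustment. The vector fit held no replicate number, and the fit for the replicate number held the vector. The SE is the size of the log2 difference over the root of F. CPM use TMM library sizes, with a prior count of 0.5 for single log2 values. A count of 0 allows 3 counts. Calls asked for a log2 difference of 0.5 and a p under 0.05. The replicates of a vector differed beyond sampling noise (chi-square over its degrees of freedom: control 136, YTHDF1 167), and each library was counted as a sample.

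The 10 subunits and the lists of receptor chains, ligands, inhibitors, signalling genes and markers were chosen with earlier results of these data known. All subunits were named. From each list except the markers, genes that passed either rule were named, with at most 5 per direction by p, and up to 5 genes with every library above 50 CPM. The neighbours next to each subunit and 3 like-patterned genes for IL6R, IL21R and IL18R1 were also within the rule. The values of 1 listed gene are not reported here. Partner chains, IL15 and markers outside it were chosen after their values were seen. Alternatives used DESeq2 1.42.0, limma 3.58.1, other filters and scalings, and each library left out. The procedure was tested on simulated data.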

Additional observations from a re-analysis of the deposited data

How the results depend on the processing

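No subunit was called between vectors under any scaling, filter, test or left-out library, with 1 exception: with the replicate number as a replicate block, 1 was called lower at an unadjusted p, IL18R1 at -1.02 (edgeR adjusted p = 0.999). The labels give the number no meaning, and deviations from the vector means correlated at 0.875 between libraries of the same number. Over all genes the block gave 58 higher and 134 lower unadjusted calls against 4 and 14, and 1 and 7 adjusted ones against 0. The other counts of unadjusted vector calls beyond 1.5 times were 32 and 50 of 26355 genes with no filter and 4 to 49 higher and 11 to 55 lower with 1 library left out, and DESeq2's Wald test made 1 and 2 adjusted calls. The sign of the IL6R vector difference turned under limma-voom (-0.71) and the block (-0.23). With 1 library left out, the vector difference of IL6R ran from -3.85 to 2.36, IL21R from -1.06 to 2.22, IL22RA1 from -0.29 to 0.83, IL4R from -0.045 to 0.25, IL15RA from -0.14 to 0.15, IL10RB from -0.089 to 0.16, IL13RA1 from -0.069 to 0.096 and IL6ST from -0.18 to 0.030, each with both signs. The vector fit holds no replicate number, so a left-out library leaves the numbers unbalanced between the vectors. The difference between numbers then enters the vector difference, and these signs do not show how stable its direction is. Compared within each replicate number, the vector difference had the same sign in both for 6 of 10 subunits and for 8752 of the 17781 tested genes. The 3 calls between replicate numbers, IL21R, IL6R and IL22RA1, were made under every scaling, filter and test tried. With 1 library left out only values remain, from 2.03 to 2.73 for IL21R, -4.94 to -3.07 for IL6R, -0.93 to 0.026 for IL18R1 and -0.17 to -0.012 for IL13RA1. Each value rests on the vector that kept both libraries, so it restates the difference within that vector. Adding counts of the read-through gene IFNAR2-IL10RB to IL10RB was not run. Low counts limit IL18R1, IL6R and IL21R most.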
